A study of Mus musculus with 4 samples.

Results

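The subject is a set of 33 imprinted genes, measured in mouse embryonic stem cells (ESCs) with and without Dppa2, a nuclear protein of pluripotent cells also named ECAT15-2. The members are a list of gene names from known imprinted clusters. A probe was found through its accession for 31 of the 33 genes, giving 53 of the 41174 gene probes on the array. No probe matched H19 or Mirg, and these genes are not analysed here. Of the 31 genes, 30 passed the filter on dim probes (well above background on both arrays of the KO or the WT group) and were tested among 21639 genes and transcripts. The remaining gene, Usp29, was well above background on the WT 1 array alone and is given by its values.

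A total of 4 ESC lines were profiled, each derived from its own blastocyst, with 1 array of total RNA per line. The 2 KO lines were 15-2-/- (no intact Dppa2) and 15-1CT/CT, that is, homozygous for a conditional targeted allele of ECAT15-1, the neighbouring gene Dppa4. The 2 WT lines were 15-2+/+ and 15-1+/+. KO 1 and WT 1 came from mother 1046, KO 2 and WT 2 from mother 875, and all 4 lines had a mixed background of 129Sv, C57/BL6 and a transgenic strain of unknown origin. All lines were kept for 3 days on gelatin in medium with 15% fetal calf serum and the cytokine LIF. A KO line and its WT counterpart therefore differed at both loci, and each line is 1 derivation.

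Imprinted genes, some of them in certain tissues alone, are transcribed mainly or only from the maternal or the paternal copy. The state is set by DNA methylation placed in the egg or the sperm at imprinting control regions. Imprinted genes lie in clusters in which protein-coding genes of growth, placenta and brain stand beside long non-coding RNAs that act on their neighbours. In ESCs this methylation must survive culture, and the Dlk1-Meg3 cluster is known to vary between lines of ESCs and of induced pluripotent cells. An array reads both copies together, so the allele that gave a signal was not measured.

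Dppa4 had 13.95 and 14.07 log2 signal in the KO lines, against 13.37 and 13.54 in the WT lines, without passing (limma, adjusted p = 0.154). The deleted gene, Dppa2, had 7.05 and 7.12 log2 signal in the KO lines, against 12.09 and 12.03 in the WT lines, and fell 31.4-fold (limma, adjusted p = 0.0089, or 0.0790 with the mother as a block). Between 28150 and 28931 probes per array were well above background and no spot was saturated. Of 10 ESC markers with a probe, 10 were well above background on all 4 arrays. Their summed linear signal was 177886 and 258312 in the KO lines, against 103030 and 111685 in the WT lines. Bright genes weigh most in such a sum: Zfp42 had 13.97 and 16.60 log2 signal in the KO lines, against 13.39 and 15.10 in the WT lines. All 10 had a positive difference (59.2% of all genes), with a median of 0.79. In limma 0 were called, and 6 were higher at an unadjusted p under 0.05 (11.1% of all genes). Y-linked signal differed between the lines. Of 7 probes for 5 Y-linked genes, 6 were well above background on the WT 1 array, and 0 on the arrays of KO 1, KO 2 and WT 2. This signal was thus not balanced between the groups. Line sex was not determined otherwise, and its part in the KO against WT differences below was not tested. Signal here is log2 of the processed intensity scaled to the 75th percentile of each array, and a difference of 1 on this scale is a factor of 2.

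Of the 30 tested genes, 1 fell in the KO lines, 0 rose and 29 did not pass the test across all genes (limma, adjusted p under 0.05), where 1.67% of all tested genes fell and 0.176% rose. Before adjustment, 7 members (23.3%, against 12.4% of all genes) were lower at p under 0.05 in limma, and 3 (10%, against 11.1%) were higher. Both KO lines lay below both WT lines for 13 members, or 43.3%, against 24.5% of all genes, and above them for 8 members, or 26.7%, against 37.7% of all genes. With median centring of the arrays those counts were 8 lower (26.7%, against 17.4% of all genes) and 11 higher (36.7%, against 52.4%). Among genes above background on all 4 arrays they were 11 lower and 8 higher of 28 members, against 4465 and 7741 of 19864 genes. Zim1 and Nnat, among the 13 lower, passed the filter through the WT lines alone. The median log2 difference of the 30 members was -0.27, against 0.10 over all tested genes. Under median centring these medians were -0.10 and 0.26. By mother, the median of the members was -0.093 within mother 1046 and -0.40 within mother 875, against 0.095 and 0.091 over all genes. With 2 lines per group an exact permutation test cannot give a two-sided p below 0.333, so single genes were not tested that way.

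**Figure D1:**
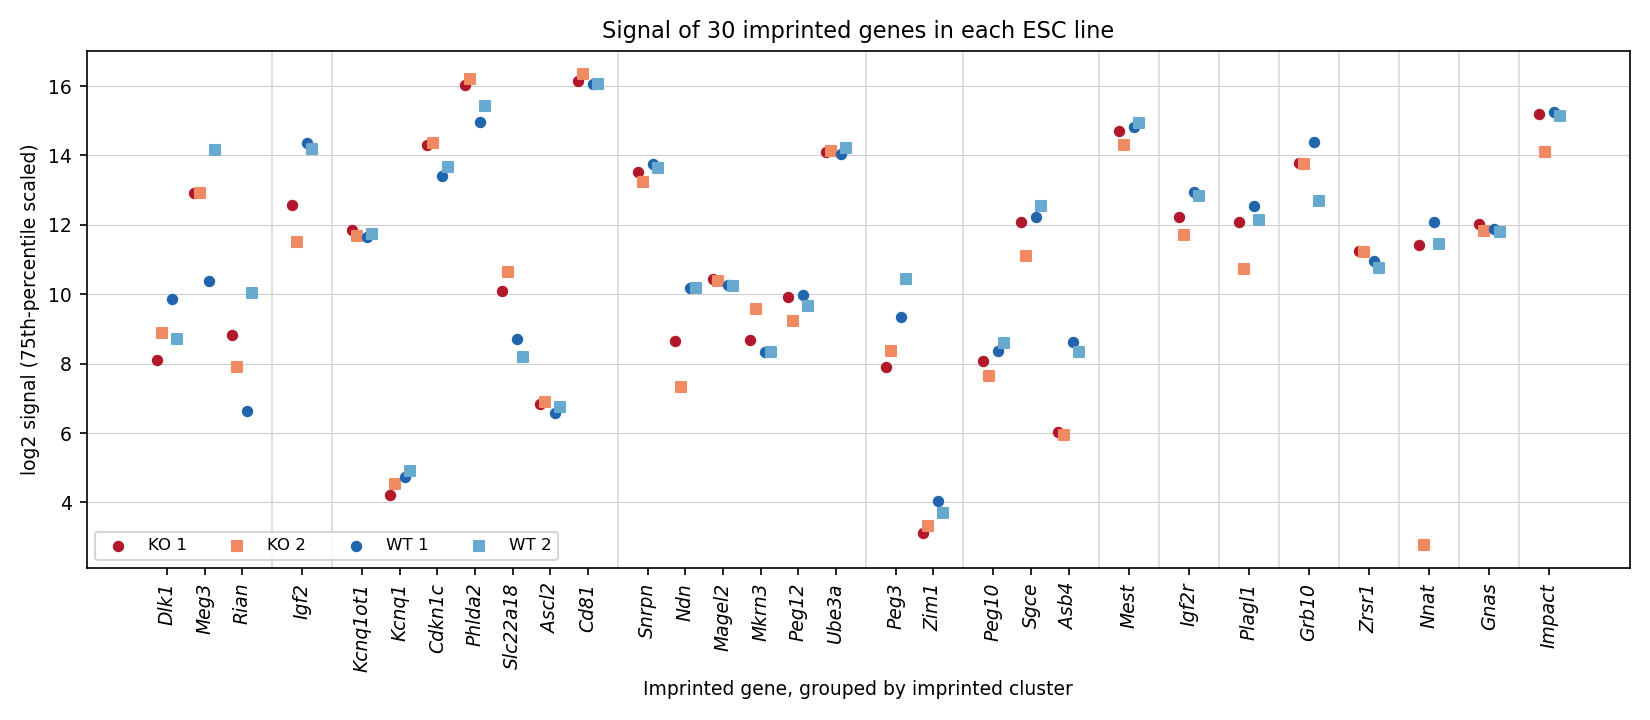
Log2 signal (vertical axis, scaled to the 75th percentile of each array) of the 30 tested imprinted genes, grouped by cluster, with 1 point per line for KO 1, KO 2, WT 1 and WT 2. The KO points of Asb4 and Igf2 lie below the WT points, those of Slc22a18 above them, Meg3 spans 10.38 to 14.17 between the WT lines, and Nnat is at 2.78 in KO 2 alone.

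The promoters of the 4 genes on which the results below turn most are shown to let their CpG content be seen. They are Meg3 and Nnat, which differed most between lines of one genotype, Asb4, which fell, and Slc22a18, the member with the largest positive difference. Each run holds the 250 bases before 1 transcription start that RefSeq lists for the gene (build GRCm38.p6, plus strand, 5' to 3'), in lower case with CpG in capitals.
Meg3, chr12:109540746-109540995: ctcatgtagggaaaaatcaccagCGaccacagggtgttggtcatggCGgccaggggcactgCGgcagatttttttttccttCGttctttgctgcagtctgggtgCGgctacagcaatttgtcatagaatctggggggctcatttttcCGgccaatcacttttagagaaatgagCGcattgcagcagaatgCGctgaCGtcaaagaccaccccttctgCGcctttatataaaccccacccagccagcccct
Nnat, chr2:157559828-157560077: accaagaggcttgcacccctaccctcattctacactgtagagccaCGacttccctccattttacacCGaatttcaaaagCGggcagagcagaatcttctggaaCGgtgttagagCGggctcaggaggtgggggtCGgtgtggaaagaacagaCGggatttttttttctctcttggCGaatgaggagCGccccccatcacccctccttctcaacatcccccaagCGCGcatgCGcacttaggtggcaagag
Asb4, chr6:5383136-5383385: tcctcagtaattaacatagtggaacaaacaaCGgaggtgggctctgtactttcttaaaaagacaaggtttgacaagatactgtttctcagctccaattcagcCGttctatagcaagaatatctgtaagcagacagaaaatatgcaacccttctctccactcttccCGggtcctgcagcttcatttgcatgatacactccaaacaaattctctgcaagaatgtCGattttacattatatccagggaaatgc
Slc22a18, chr7:143473539-143473788: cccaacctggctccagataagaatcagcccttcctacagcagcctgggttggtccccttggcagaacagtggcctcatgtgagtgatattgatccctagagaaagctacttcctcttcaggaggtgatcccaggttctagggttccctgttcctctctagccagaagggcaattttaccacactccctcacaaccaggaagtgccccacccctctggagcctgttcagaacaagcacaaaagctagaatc
These windows held 10 CpG for Meg3, 12 for Nnat, 4 for Asb4 and 0 for Slc22a18, against a median of 6 over the 32851 promoter windows in the table. A second window in the table held 0 CpG for Meg3 and 8 for Asb4. The hexamer TGCCGC (either strand), which the imprint-protecting zinc finger protein ZFP57 reads when methylated, was present in 12.2% of 41 windows of 27 members and in 8.68% of all windows. The 4 members with a match were Meg3, Mest, Plagl1 and Zim1. Mest was counted with 2 windows that overlap almost fully, which raises the share of member windows. A match is a stretch of letters and not a measured binding site. Whether any of these windows lies in an imprinting control region was not examined, so the counts do not locate an imprint.

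In the Dlk1-Meg3 cluster of chromosome 12, Meg3 and Rian differed more between the WT lines than between the group means. Meg3, a maternally expressed long non-coding RNA, had 12.93 in both KO lines, against 10.38 in WT 1 and 14.17 in WT 2. Both KO lines thus lay between the WT lines, which were 13.7-fold apart. All 5 Meg3 probes showed this order, with WT 2 above WT 1 by 3.77 to 4.01 and KO 2 above KO 1 by 0.00 to 0.64 on the log2 scale. On its dimmest probe WT 1 was not well above background. Rian, a maternal non-coding RNA downstream of Meg3 that holds small nucleolar RNAs, followed with 8.83 and 7.90 in the KO lines, against 6.64 in WT 1 and 10.03 in WT 2, a 10.5-fold gap between the WT lines.

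Dlk1, the paternally expressed gene of a transmembrane ligand related to Delta, ran the other way between the WT lines. It had 8.09 and 8.89 in the KO lines, against 9.85 in WT 1 and 8.70 in WT 2, so that WT 1, lowest for Meg3 and Rian, was highest for Dlk1. Dio3, the deiodinase gene at the far end of the same cluster and not a member, had 9.20 and 8.68 in the KO lines, against 9.42 and 9.47 in the WT lines. Neither Meg3 (log2 difference 0.65, SE 1.39), Rian (0.03, SE 1.30) nor Dlk1 (-0.78, SE 0.53) passed the test of genotype (limma, adjusted p of 0.787, 0.990 and 0.410). WT lines at least 8-fold apart made up 0.36% of all tested genes, and 2 of 30 members, Meg3 and Rian. The same 2 members, against 0.37% of all tested genes, had differences of at least 2-fold in opposite directions within the 2 mothers. WT 1 is also the line with Y-linked signal, and the part of line sex in these values was not tested.

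**Figure D2:**
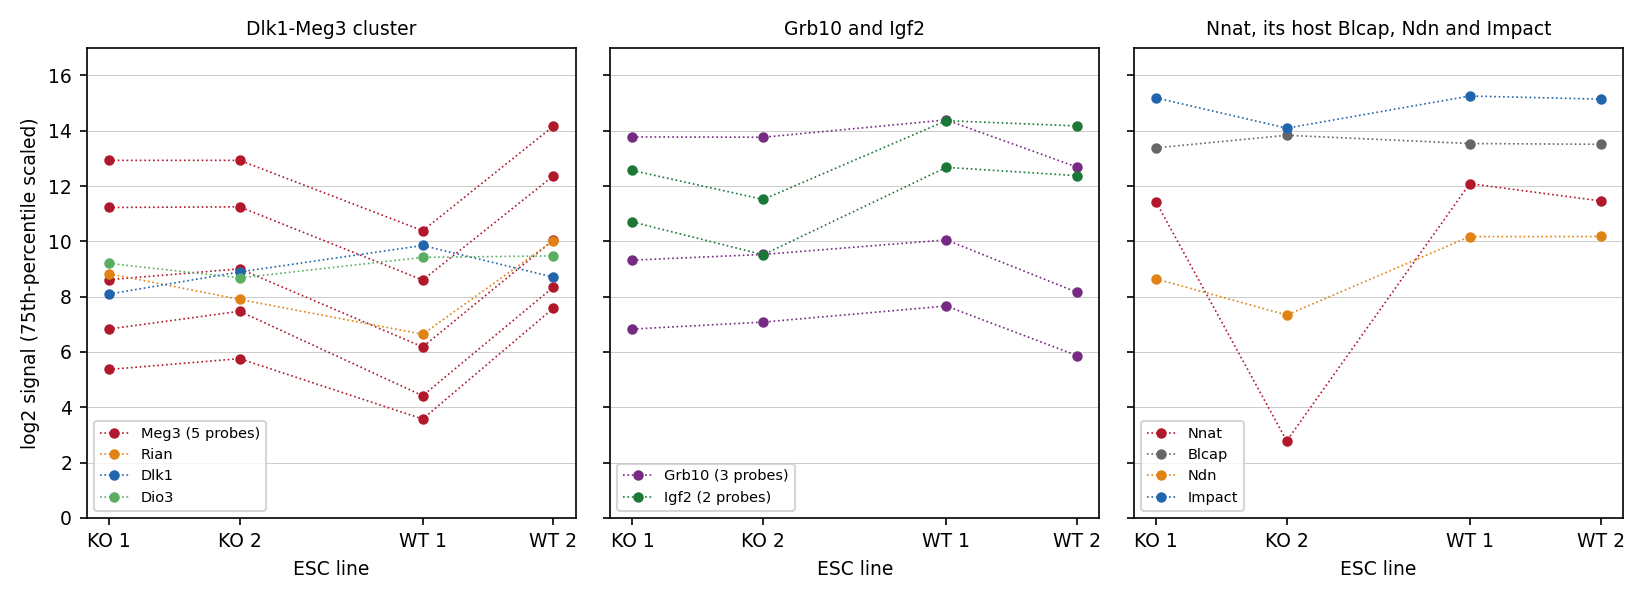
Log2 signal (vertical axis) of members and neighbouring genes in the lines KO 1, KO 2, WT 1 and WT 2 (horizontal axis), with 1 dotted series per probe for Meg3, Grb10 and Igf2 and per gene otherwise. All 5 Meg3 series dip in WT 1 and peak in WT 2, Grb10 does the reverse, and Nnat drops to 2.78 in KO 2 while Blcap stays between 13.38 and 13.83.

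Nnat encodes neuronatin, a small membrane protein, and is paternally expressed from within an intron of Blcap on chromosome 2. Its signal was lost in a single KO line: it had 11.43 in KO 1 and 2.78 in KO 2, against 12.09 and 11.46 in the WT lines. The KO 2 value was not well above background, and KO 1 lay at least 277-fold above the lowest detectable signal of that array. KO lines at least 8-fold apart made up 0.615% of all tested genes, and Nnat was the 1 member among them. Blcap, from the other imprinted genes, had 13.38 and 13.83 in the KO lines, against 13.54 and 13.51 in the WT lines. Nnat did not pass the test of genotype (limma, adjusted p = 0.416), and since the KO 2 value was below detection the size of that difference is not fixed. Without KO 2 the log2 difference was -0.34.

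Nnat was not alone in being low in KO 2. KO 2 lay at least 2-fold below KO 1 for 5 of 30 members, against 6.09% of all genes, and at least 2-fold above it for 0 members, against 3.23% of all genes. Of 37 other imprinted genes tested, KO 2 lay at least 2-fold below KO 1 for 3 (8.11%) and above it for 4 (10.8%). The low values in KO 2 were thus not shared by that list. The 5 were Nnat, Igf2, Ndn, Plagl1 and Impact, each of which is known as paternally expressed. Plagl1, a zinc finger transcription factor gene, had 12.07 and 10.74 in the KO lines, against 12.55 and 12.15 in the WT lines. Impact, a regulator of the stress kinase Gcn2, had 15.19 and 14.09 in the KO lines, against 15.25 and 15.14 in the WT lines. For both genes KO 1 was near the WT lines and KO 2 below all 3 others.

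By parental class, KO 2 was below KO 1 for 13 of 16 paternally expressed and 4 of 13 maternally expressed members, and for 46.8% of all genes. Among the other imprinted genes, not split by class, it was so for 19 of 37 (51.4%). The median difference KO 2 minus KO 1 was -0.40 over the paternal and 0.06 over the maternal members. Between the WT lines, WT 2 was below WT 1 for 9 of 16 paternal and 6 of 13 maternal members, and for 48.2% of all genes. Gnas, whose expressed copy depends on the transcript, was in neither class. The classes are those known for each gene, for some, such as Ube3a, in certain tissues alone. Whether they hold in these ESC lines was not measured. The counts are over genes of the same arrays, and members of 1 cluster are not independent of each other.

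**Figure D3:**
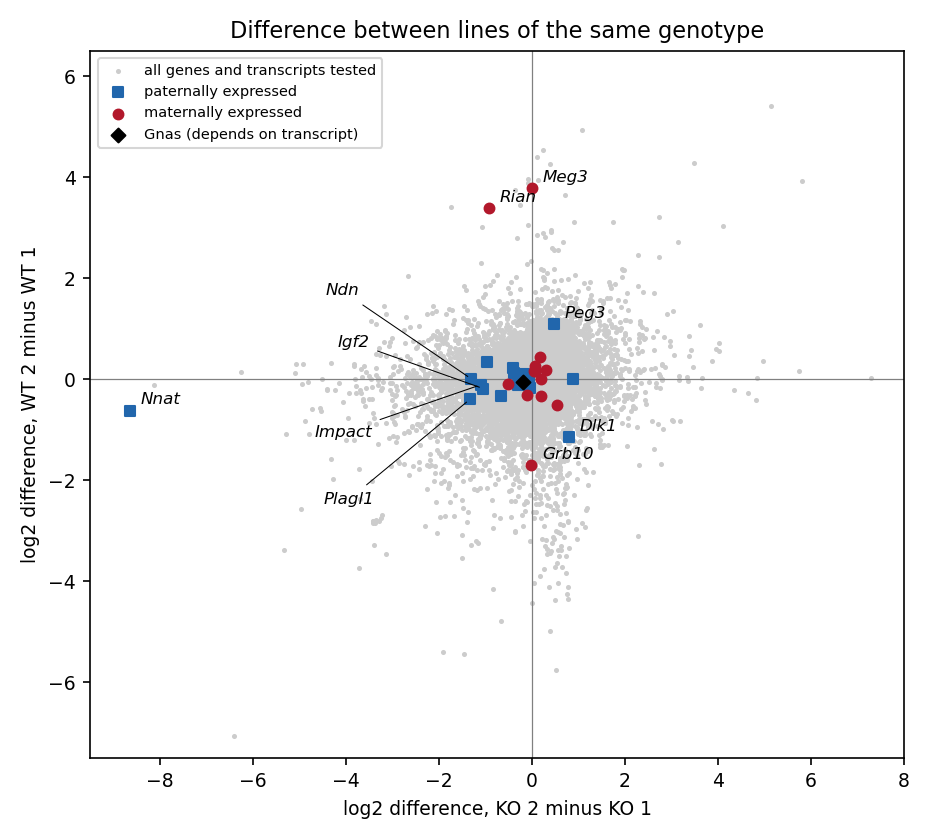
Log2 difference KO 2 minus KO 1 (horizontal axis) against WT 2 minus WT 1 (vertical axis) for all 21639 tested genes and transcripts (grey) and the 30 members, coloured by the copy they are known to be expressed from. Meg3 and Rian stand apart on the WT axis, Nnat on the KO axis, and members at least 2-fold apart on either axis are named.

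Grb10, a maternally expressed adaptor gene that restrains growth factor signalling, differed between the WT lines as well. It had 13.77 and 13.76 in the KO lines, against 14.39 in WT 1 and 12.68 in WT 2, a 3.26-fold gap between the WT lines with the KO lines between them. Its 3 probes gave WT 2 below WT 1 by 1.70 to 1.89. In total, WT lines were at least 2-fold apart for 5 of 30 members (16.7%, against 4.99% of all genes), namely Meg3, Rian, Dlk1, Grb10 and Peg3. KO lines were at least 2-fold apart for the same number of members (16.7%, against 9.32% of all genes). The median size of the difference between lines was 0.34 for KO and 0.20 for WT lines over the members, against 0.24 and 0.18 over all genes.

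In the cluster of Peg10 and Sgce on chromosome 6, Asb4 fell in the KO lines. Asb4, a maternally expressed gene of a SOCS-box protein, had 6.04 and 5.94 in the KO lines, against 8.63 and 8.32 in the WT lines. The gap between the groups was wider than that between lines of 1 genotype, and the fall was 5.61-fold (limma, n = 2 per group, log2 difference -2.49 with SE 0.17, adjusted p = 0.0271). The second Asb4 probe was well above background on the WT 1 array alone, with 1.17 and 1.30 in the KO lines, against 3.84 and 3.25 in the WT lines. With the mother as a block the same log2 difference did not pass (limma, adjusted p = 0.0831), and 0 genes on the array were called in that fit, where limma before adjustment had 2736 genes lower and 2278 higher at p under 0.05. Under normexp background correction the log2 difference was -1.78. The Asb4 call was also lost when any 1 line was left out. It was lost too with genes above background on all 4 arrays (limma, adjusted p = 0.0503), a fit in which 0 genes on the array were called.

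The paternally expressed genes of that cluster did not pass. Peg10, a gene of retrotransposon origin needed in the placenta, had 8.06 and 7.65 in the KO lines, against 8.37 and 8.59 in the WT lines (limma, adjusted p = 0.203). Sgce, the epsilon-sarcoglycan gene, had 12.07 and 11.10 in the KO lines, against 12.23 and 12.55 in the WT lines (limma, adjusted p = 0.302), and its 2 probes had log2 differences of -0.80 and -0.78. In both genes KO 2 was the lowest line, and the KO lines lay below the WT lines without overlap, as for 24.5% of all genes.

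Igf2, the paternally expressed growth factor gene, had 12.56 and 11.51 in the KO lines, against 14.36 and 14.17 in the WT lines. The KO lines lay below the WT lines without overlap, as for 24.5% of all genes, and the difference was larger than that between lines of 1 genotype. On average Igf2 was 4.69-fold lower in KO lines (log2 difference -2.23, SE 0.41), without passing the test (limma, adjusted p = 0.102), and its second probe gave -2.42. Without KO 1 it was called (limma, adjusted p = 0.0454), as were Ndn and Nnat, in a fit that called 3.14% of all genes lower. Igf2r, the maternally expressed receptor gene that clears its product, had 12.23 and 11.72 in the KO lines, against 12.94 and 12.84 in the WT lines (log2 difference -0.91, SE 0.22, limma adjusted p = 0.145). Airn, the paternal non-coding RNA antisense to Igf2r and one of the other imprinted genes, had 2.44 and 1.30 in the KO lines, against 7.02 and 5.70 in the WT lines. Its KO values were not well above background. It was at least 8.45-fold lower in KO lines, without passing (limma, adjusted p = 0.0787).

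Summed signals of marker lists of other cell types were lower in the KO lines. The summed linear signal of 20 fibroblast markers was 96063 and 74105 in the KO lines, against 208630 and 146091 in the WT lines. Of the 20, 15 were lower in KO lines, 2 of them called (Mmp2 and Fbn1), and 19 were above background on all 4 arrays. Bright genes weigh most in this sum too: Tagln had 14.07 and 12.12 log2 signal in the KO lines, against 16.41 and 16.18 in the WT lines. A positive difference was found for 5 of the 20, up to 1.64 for Pdgfra. For 12 trophoblast markers with a probe the sums were 86733 and 63133 in the KO lines, against 297524 and 393102 in the WT lines. Of 11 tested trophoblast markers 10 were lower and 1 was called (Krt8). For 14 primitive endoderm markers the sums were 12889 and 9744 in the KO lines, against 20641 and 19432 in the WT lines, with 8 markers lower and 6 higher, 1 called lower (Dab2) and 1 higher (Lama1). Within that list Col4a1 and Col4a2, basement membrane collagens, had log2 differences of -2.18 and -1.94, while the transcription factor genes Gata4, Gata6, Sox7 and Sox17 had 0.53, 1.19, 1.44 and 1.42. For 10 neural markers the sums were 12016 and 10857 in the KO lines, against 16087 and 22624 in the WT lines, with 4 markers lower, 6 higher and 0 called (limma, before adjustment 1 lower and 1 higher at p under 0.05). In these 4 lists 0 markers with a probe were below background on all 4 arrays, and the part of these cell types in the values of imprinted genes was not tested. In bulk RNA, fewer cells of a type and less RNA per cell cannot be told apart.

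In the Kcnq1 cluster on distal chromosome 7, 6 of 7 members had a positive difference, against 59.2% of all genes, and 0 passed the test (limma, before adjustment 3 higher and 0 lower at p under 0.05). Slc22a18, a maternally expressed gene of an organic cation transporter-like protein, had 10.09 and 10.64 in the KO lines, against 8.72 and 8.20 in the WT lines. It was 3.75-fold higher on average (log2 difference 1.91, SE 0.30, limma adjusted p = 0.0873), and its dimmer probe gave 1.13. Cdkn1c, the cyclin-dependent kinase inhibitor gene p57, had 14.31 and 14.37 in the KO lines, against 13.40 and 13.66 in the WT lines (log2 difference 0.81, limma adjusted p = 0.108). Phlda2, a gene that limits placental growth, had 16.03 and 16.21 in the KO lines, against 14.98 and 15.41 in the WT lines (log2 difference 0.92, limma adjusted p = 0.134), and 1.02 by its second probe.

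These 3 neighbouring genes are all known as maternally expressed. In each the KO lines lay above the WT lines without overlap, as for 37.7% of all genes. Kcnq1ot1, the paternal non-coding RNA whose transcription silences the paternal copies of this cluster, had 11.84 and 11.67 in the KO lines, against 11.64 and 11.75 in the WT lines, a difference of 0.06 (SE 0.14). Of its 6 probes, 4 passed the filter, with log2 differences of -0.08 to 0.13. Kcnq1, the maternally expressed potassium channel gene that hosts it, lay below the WT lines without overlap, as for 24.5% of all genes, with a log2 difference of -0.45. Ascl2, the gene of a transcription factor of the placenta, and Cd81, a tetraspanin gene, had 0.21 and 0.17.

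Further along the chromosome, Osbpl5, an oxysterol-binding protein gene, had 10.35 and 10.12 in the KO lines, against 12.06 and 11.78 in the WT lines, without passing (log2 difference -1.68, limma adjusted p = 0.0520). Tnfrsf23, a decoy receptor gene, was not well above background in the KO lines and at least 2.20-fold lower (limma, adjusted p = 0.0903). The stretch was mixed: Dhcr7, between Osbpl5 and Ano1, was higher within both mothers (0.85 and 0.64) without passing (log2 difference 0.74, limma adjusted p = 0.113). Nap1l4 and Tnfrsf22 had log2 differences of 0.14 and -0.08. Ano1, a calcium-activated chloride channel gene, fell 3.60-fold, with 3.61 and 3.77 in the KO lines, against 5.55 and 5.53 in the WT lines (limma, adjusted p = 0.0295). With the mother as a block Ano1 was not called (limma, adjusted p = 0.0916), and under normexp background correction its log2 difference was -0.63, against -1.85 in the scaling used here, and did not pass (limma, adjusted p = 0.149).

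**Figure D4:**
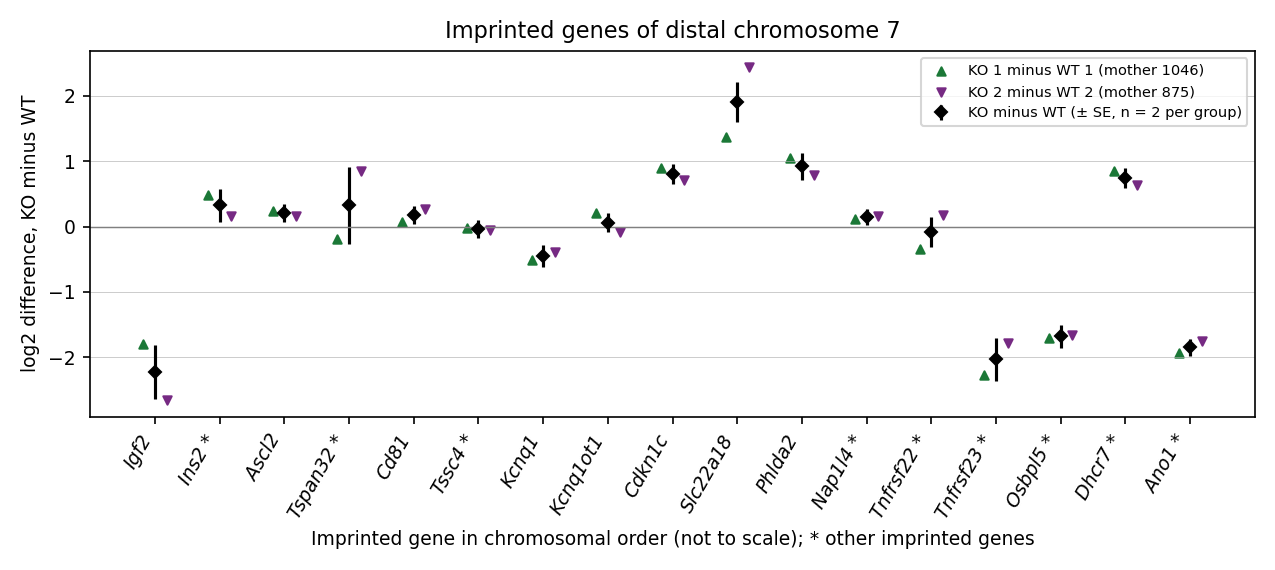
Log2 difference KO minus WT (vertical axis, diamonds with SE, n = 2 per group) for tested imprinted genes of distal chromosome 7 in their order along the chromosome, with the difference within mother 1046 (upward triangles) and within mother 875 (downward triangles). Cdkn1c, Slc22a18, Phlda2 and Dhcr7 lie above 0 within both mothers, Igf2, Tnfrsf23, Osbpl5 and Ano1 below it, and Kcnq1ot1 near it.

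The Snrpn cluster of central chromosome 7, the counterpart of the human Prader-Willi and Angelman region, was mixed. Ndn, the paternally expressed necdin gene, had 8.64 and 7.33 in the KO lines, against 10.17 in both WT lines, and was 4.55-fold lower on average (log2 difference -2.18, SE 0.49, limma adjusted p = 0.132). Its neighbour Magel2, also a MAGE family gene, had 10.44 and 10.37 in the KO lines, against 10.26 and 10.24 in the WT lines. Mkrn3, a makorin ring finger gene next to both, had 8.69 and 9.56 in the KO lines, against 8.33 and 8.34 in the WT lines (log2 difference 0.79, limma adjusted p = 0.264). Of these 3 adjacent paternal genes, KO 2 was thus the lowest line for Ndn and the highest for Mkrn3.

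The other genes of the cluster differed little. Snrpn, the gene of a splicing protein at the cluster's control region, had a log2 difference of -0.31 (-0.27 by its second probe), and Peg12 one of -0.23. Ube3a, the ubiquitin ligase gene that is imprinted in neurons, had -0.01 and 0.12 by its 2 probes. None of the 6 genes of the cluster passed the test, with limma adjusted p between 0.132 for Ndn and 0.958 for Ube3a.

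In the Peg3 cluster of proximal chromosome 7, Peg3, a paternally expressed zinc finger gene, had 7.91 and 8.38 in the KO lines, against 9.35 and 10.44 in the WT lines. It was 3.37-fold lower on average without passing (log2 difference -1.75, SE 0.45, limma adjusted p = 0.154), and its second probe gave -1.52. Usp29, which shares the Peg3 promoter region in the opposite direction, had 2.73 and 2.29 in the KO lines, against 4.20 and 3.34 in the WT lines, and only the value of WT 1 was well above background. Zim1, a maternal zinc finger gene beside them, had 3.12 and 3.32 in the KO lines, against 4.04 and 3.71 in the WT lines. It was not well above background in the KO lines and at least 1.51-fold lower (limma, adjusted p = 0.171).

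Of the remaining single-gene loci, none passed the test. Mest, a paternal hydrolase gene, had a log2 difference of -0.38, Zrsr1, a splicing factor gene, 0.38, and Gnas, the gene of a stimulatory G protein subunit, 0.08 by its 1 probe that passed the filter. For Plagl1 the difference was -0.95 with a second probe at -0.65, and for Impact it was -0.56. Limma adjusted p for these 5 genes lay between 0.218 and 0.754.

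Differences of at least 2-fold in the same direction within both mothers were found for Igf2, Ndn, Peg3 and Asb4 as lower (13.3% of members, against 6.94% of all genes) and for Slc22a18 as higher (3.33%, against 1.56% of all genes). These counts carry no test. The plot of KO minus WT differences gives each member with its value in either mother.

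**Figure D5:**
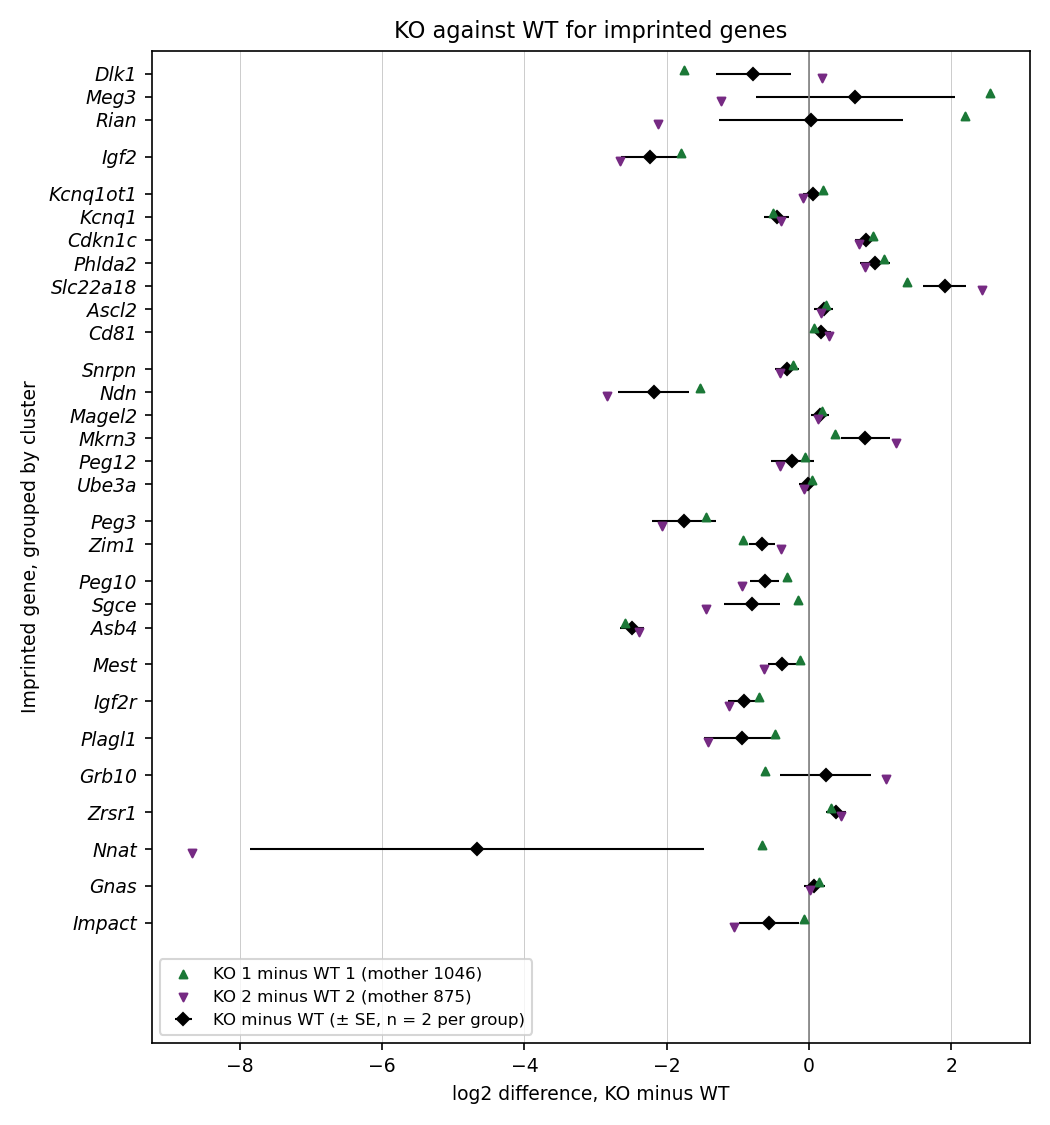
Log2 difference KO minus WT (horizontal axis) of the 30 tested members, grouped by cluster, as diamonds with SE (n = 2 lines per group), with the difference within mother 1046 (upward triangles) and mother 875 (downward triangles). Asb4 has close triangles at -2.59 and -2.38, whereas those of Meg3 and Rian lie on opposite sides of 0. For Nnat the point of mother 875 and the diamond rest on a KO 2 value below detection.

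Of 51 other imprinted genes listed beside the members, 42 had a probe and 37 were tested. In limma 1 of these fell (Ano1), 0 rose and 36 did not pass, and at an unadjusted p under 0.05 there were 12 lower (32.4%, against 12.4% of all genes) and 4 higher (10.8%, against 11.1%). Their median log2 difference was -0.08. Genes at least 2-fold lower within both mothers numbered 7 (18.9%, against 6.94% of all genes), and 1 gene was at least 2-fold higher. Of these 7, Airn, Gatm, Nap1l5 and Tnfrsf23 were not well above background in the KO lines. They passed the filter through the WT lines alone, and all are among the 12 lower at an unadjusted p under 0.05 in limma. Among genes above background on all 4 arrays the 2-fold count was 3 of 33 (9.09%, against 4.67% of all genes), and 4 of 28 members (14.3%). Besides Ano1, Osbpl5, Tnfrsf23 and Airn, the lower ones were Gatm, Pon3 and Nap1l5. Gatm, the enzyme of the first step of creatine synthesis, had 1.13 and 3.25 in the KO lines, against 8.29 and 8.79 in the WT lines. It was not well above background in the KO lines and at least 38.3-fold lower, without passing (limma, adjusted p = 0.0663). Pon3, a paraoxonase gene near Peg10, had a log2 difference of -1.68, and Nap1l5, a paternal retrogene, was at least 2.84-fold lower (limma, adjusted p of 0.165 and 0.186). The gene that was higher was Cobl, an actin nucleator gene next to Grb10, with 12.43 and 12.64 in the KO lines, against 10.97 and 10.22 in the WT lines (log2 difference 1.94, limma adjusted p = 0.0885).

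Of 13 tested genes that act on imprint methylation, 0 passed the test in limma. At an unadjusted p under 0.05, 5 were higher (38.5%, against 11.1% of all genes) and 0 lower (against 12.4%). A positive difference was found for 11 (84.6%, against 59.2% of all genes), and the median log2 difference was 0.30, against 0.10 over all genes. Zfp57, which protects methylation at imprinting control regions, had 11.76 and 11.26 in the KO lines, against 10.27 and 9.49 in the WT lines (limma, adjusted p = 0.129). Its partner Trim28 had a log2 difference of 0.55, Dnmt3l, the cofactor of the de novo methyltransferases, 1.37, and Tet2, a dioxygenase gene of active demethylation, 1.67. Limma adjusted p for these 3 lay between 0.0776 and 0.135.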

How the data were processed

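Labelled RNA of 4 ESC lines was hybridised to Agilent whole-genome mouse arrays, 1 array per line, all on 1 slide in 1 scan. Per the file headers, intensity values came from Agilent Feature Extraction 10.7.3.1, which had subtracted background and detrended each array without scaling between arrays. The authors' deposited series table holds log2 values with equal quantiles and a median of 6.55 in every column. GeneSpring GX11 is named per the labels. Array annotation is on mm9, and symbols came from RefSeq (GRCm38.p6) by accession: 26690 of 41174 probes had 1 symbol and 14484 none.

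Here log2 intensity was scaled to each array's 75th percentile. Control spots, flagged spots and 233 probes with all spots flagged on at least 1 array were left out, and the brightest probe that passed the filter stood for its gene. The filter on dim probes used the scanner software's background flag. Genotype was fitted with limma 3.58.1 in R 4.3.3 (lmFit, eBayes, Benjamini-Hochberg at 0.05) over 21639 genes and transcripts, and tested on simulated data. The lines are separate derivations, so p-values measure the spread between lines, and 2 arrays per group limit the precision. Pairing comes from the labels, which tie replicate numbers to a mother: the line differences of KO and WT correlated at 0.19 across genes, which are not independent replicates. "At least N-fold" sets the brighter group's mean against, per array, the higher of the dim probe's value and the lowest signal well above background (3.24 to 3.58). The 13 alternatives changed scaling, background correction (normexp with offset 50, on median spot and background intensity, since no mean spot signal was used), filter, probe rule, block, variance prior and replicates.

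Named genes are all members, other imprinted genes called or at least 2-fold apart within both mothers, the 4 imprint maintenance genes with the smallest p, Dppa2 and Dppa4. Krt8, Mmp2, Fbn1, Tagln, Pdgfra, Dab2, Lama1, Col4a1, Col4a2, Gata4, Gata6, Sox7, Sox17, Zfp42, Blcap, Dio3, Dhcr7, Nap1l4 and Tnfrsf22 were named after their values were seen. Members and lists were chosen with earlier results of these data known.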

Additional observations from a re-analysis of the deposited data

Results flagged for a closer look

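Both non-coding RNAs of the Dlk1-Meg3 cluster had differences of at least 2-fold in opposite directions within the 2 mothers, as did 0.37% of all tested genes. Meg3 differed by 2.54 on the log2 scale between KO 1 and WT 1 (mother 1046) and by -1.24 between KO 2 and WT 2 (mother 875). Rian differed by 2.19 and -2.13 in the same pairs. With 1 line per mother and genotype, the difference between the mothers was not tested.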

How the results depend on the processing

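Of the 44 tested genes that the naming rule gives, 36 kept the sign of their KO minus WT difference under the 12 alternatives that give 1 value per gene (11 for 6 genes that were dim on some array). With the replicate block (mother) 0 members were called lower, with limma adjusted p of 0.0831 for Asb4 and 0.0916 for Ano1, and 0 other imprinted genes were called; limma then gave 2736 lower and 2278 higher over all genes at an unadjusted p under 0.05. Under the block limma called 0 genes on the whole array, so no call was gained. With genes above background on all 4 arrays, limma called 0 of 19864 genes, and so 0 members and 0 other imprinted genes. Before adjustment 2184 of all genes were lower and 2444 higher at p under 0.05 in limma. When 1 line was left out, members called lower numbered 0 to 3 and other imprinted genes called lower 0 to 2. The 3 members were called without KO replicate 1 (Igf2, Ndn and Nnat), in a fit that called 3.14% of all genes lower. When any other line was left out limma called 0 genes on the whole array, with 1720 (no WT 1), 1772 (no WT 2) and 2468 (no KO 2) lower at an unadjusted p under 0.05. A lone line left in a group is assumed to vary like the other group. The median log2 difference over members was then -0.41 to -0.023 (without KO replicate 2), and it was -0.014 over 47 probes taken separately. Other imprinted genes called lower were 0 under quantile scaling (1.22% of all genes) and 0 in the deposited values (1.17%). They were 3 under normexp (Airn, Gatm and Osbpl5, against 2.04% of all genes). With a trend and robust prior they were 2 (Gatm and Osbpl5, against 1.95%). Airn and Gatm were not well above background in the KO lines and passed the filter through the WT lines alone. Members below the WT lines without overlap numbered 8 under median centring (26.7%, against 17.4% of all genes). Of the 47 member probes, 12 had WT lines at least 2-fold apart, against 4.51% of all 28688 probes. These 12 belong to Meg3 (5 probes), Grb10 (3), Peg3, Rian and Dlk1, and probes of 1 gene are not independent. The brighter Slc22a18 probe and the second Phlda2 probe were at least 2-fold higher within both mothers. For that rule the share over all probes was not counted.

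Small differences changed sign. Cd81 was at -0.039 under quantile scaling and -0.0024 in the deposited values. Ube3a was at 0.15 under median centring and 0.016 under normexp, and Rian at -0.074 under normexp. When 1 line was left out, Ube3a ran from -0.090 to 0.063 (0.063 without WT replicate 2 and 0.0088 without KO replicate 1). Rian ran from -1.66 (without WT replicate 1) to 1.72, with -0.43 without KO replicate 1. Meg3 ran from -1.24 (without WT replicate 1) to 2.54, Grb10 from -0.62 (without WT replicate 2) to 1.08, Gnas from -0.025 (without KO replicate 1) to 0.18, Kcnq1ot1 from -0.028 (without KO replicate 1) to 0.15 and Peg12 from -0.57 to 0.11 (without KO replicate 2). The cause was not tested, except that leaving out a line leaves fewer lines. Signal over background limits Usp29, Zim1 and the dimmer probe of Asb4.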
